A study of Mus musculus with 2 samples.

Results

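The genes described here encode the mitochondrial respiratory chain and the ATP synthase. Members were all genes whose symbol starts with Ndufa, Ndufb, Ndufc, Ndufs, Ndufv, Uqcr, Cox4i, Cox5, Cox6, Cox7, Cox8, Atp5, mt-Nd, mt-Co, mt-Atp or mt-Cytb, together with Sdha, Sdhb, Sdhc, Sdhd and Cyc1, if they had at least 100 UMIs (unique molecular identifiers, each standing for 1 captured RNA molecule) over both libraries. Of 32285 genes, 108 matched and 104 were kept. Of these, 91 lie in the nuclear genome and 13 in the mitochondrial genome. The nuclear members were 36 subunits of complex I, 8 complex I assembly factors (the Ndufaf genes), 4 subunits of complex II, 9 of complex III, 16 of complex IV, 17 of complex V (the ATP synthase) and Cox7a2l, an assembly factor of supercomplexes. The mitochondrial members were 7 subunits of complex I, 1 of complex III, 3 of complex IV and 2 of complex V. Left out were Cox7b2 with 3 UMIs and Cox8b, Cox8c and Ndufa13 with 0 UMIs. Ndufa13 encodes a complex I subunit used by most cells and was listed at 0 in both libraries, so nothing is said of its level.

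The study compared tumour-infiltrating immune cells of wild-type mice that carried MC38-OVA tumours and were fed either a control diet or a sitagliptin diet. Sitagliptin blocks the peptidase DPP4 and is taken by mouth. The MC38-OVA line derives from a mouse colon tumour and makes ovalbumin, a foreign protein used as a model antigen. The control group (wild type, MC38-OVA tumour, control diet) and the sitagliptin group (wild type, MC38-OVA tumour, sitagliptin diet) were each 1 library of CD45+ cells isolated from tumour suspensions with magnetic beads and prepared with a droplet kit that reads the 5′ end of transcripts. The age of the mice, the dose, the time on the diet and the number of mice in a library were not found in the sources used here.

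Electrons from NADH enter the chain at complex I and those from succinate at complex II, pass through complex III and cytochrome c to complex IV, and the proton gradient built on the way drives complex V. Complexes I, III, IV and V are built from subunits of both genomes, while all subunits of complex II are encoded in the nucleus, and complex II is also an enzyme of the tricarboxylic acid cycle. Several subunits of complex IV exist as isoforms that are known from muscle, lung or oxygen-poor tissue and that replace the common form.

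The promoters of 4 members are shown because these members carry the results below. Cox6a1 is the common form of a complex IV subunit whose other form, Cox6a2, stood high in 1 small class. Ndufa4, a subunit of complex IV, was lower in macrophages than in the other large classes. Ndufa3, of complex I, and Atp5k, subunit e of complex V, had among the highest ratios between the diets. The letters are RefSeq promoter sequence of build GRCm38.p6, 5′ to 3′ on the gene's strand. For Cox6a1, Ndufa4 and Ndufa3 they are cut to end before the start sites annotated in RefSeq and GENCODE. The Atp5k stretch ends before the RefSeq start only. GENCODE places the Atp5k start 49 bases further upstream, so most of the match and the printed bases after it lie within the GENCODE gene. Capitals mark GCGCA followed by any base and GCGC, the motif of nuclear respiratory factor 1 (NRF1), a transcription factor known for respiratory chain genes, searched on both strands. Cox6a1 is at chr5:115348982-115349208, minus strand, Ndufa4 at chr6:11907498-11907700, minus strand, Ndufa3 at chr7:3617123-3617372, plus strand, and for Atp5k 30 bases around its match are given, chr5:108434430-108434459, minus strand.
Cox6a1: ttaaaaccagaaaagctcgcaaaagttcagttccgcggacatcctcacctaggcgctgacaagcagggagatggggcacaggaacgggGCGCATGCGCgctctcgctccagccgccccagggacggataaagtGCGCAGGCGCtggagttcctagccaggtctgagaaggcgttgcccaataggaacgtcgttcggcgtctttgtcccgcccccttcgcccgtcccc
Ndufa4: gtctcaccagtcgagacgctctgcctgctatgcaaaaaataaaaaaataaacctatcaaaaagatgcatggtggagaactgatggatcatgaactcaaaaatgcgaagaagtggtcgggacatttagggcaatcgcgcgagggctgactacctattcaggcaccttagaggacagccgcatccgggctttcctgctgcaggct
Ndufa3: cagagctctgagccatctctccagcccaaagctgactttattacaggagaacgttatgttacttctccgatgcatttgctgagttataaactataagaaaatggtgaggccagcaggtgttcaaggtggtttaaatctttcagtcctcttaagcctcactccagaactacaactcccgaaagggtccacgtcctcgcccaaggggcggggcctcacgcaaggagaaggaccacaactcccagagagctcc
Atp5k: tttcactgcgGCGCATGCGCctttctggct

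Cox6a1 has 2 matches, 162 and 117 bases before the RefSeq start, and Atp5k has 1, 50 bases before it. The printed stretches of Ndufa4 and Ndufa3 hold none. A RefSeq promoter was matched to 73 of the 91 nuclear members. In the 250 bases before the start, 14 of the 73 (19.2%) hold this NRF1 motif on either strand, against 5.84% of the 17491 protein-coding genes with a promoter. The ETS family motif CCGGAAG is in 14 members (19.2%, against 10.2%), CCAAT in 32 (43.8%, against 39.5%) and TATAA in 9 (12.3%, against 23.5%), each on either strand. Cox6a1 holds the NRF1 motif, the ETS motif and CCAAT. These are matches of letters only.

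The control library held 8694 barcodes and 64139749 UMIs, and the sitagliptin library 9766 barcodes and 76788699 UMIs. The lowest total was 2001 UMIs in both, and 132 barcode sequences occur in both libraries. Cells were assigned to classes by UMIs of marker genes, which placed 79.5% and 83.4% of barcodes. The rest carried markers of several classes (930 and 895 barcodes) or too few (854 and 730). Macrophages were the largest class with 4663 control and 5753 sitagliptin cells, followed by monocytes (710 and 1059), T cells (247 and 402), dendritic cells (104 and 137) and NK cells (98 and 148). Neutrophils (48 and 29) and plasmacytoid dendritic cells (11 and 23) are given as values only. A further class, called Ptprc-negative, held 1026 and 583 barcodes of at least 5000 UMIs with 0 UMIs of Ptprc, the gene for CD45, which goes against the CD45+ label of the sort. Its median depth was 15035.5 and 19547 UMIs, against 3326.5 to 5474 in the 5 classes of immune cells above. Its keratin and epithelial markers summed to 0.746 and 1.09 CPM (UMIs of a gene scaled to the same total in each library and class) and its fibroblast list to 291 and 405 CPM (4 and 5 of 5 markers with a UMI), while Hmga2 stood at 553 and 535 CPM, so it is called by its rule and given no cell type. Intervals below are 95% intervals for counting error only.

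Nuclear members made up between 1.61% (dendritic cells) and 2.05% (NK cells) of all UMIs of a class in the control library, and between 1.61% (monocytes) and 1.97% (T cells) in the sitagliptin library, among the 6 classes with over 90 cells in each library. Mitochondrially encoded members made up 0.485% to 0.598% and 0.437% to 0.636%. In single macrophages the nuclear share had a median of 1.70% (5th to 95th percentile 1.02% to 2.59%) in the control library and 1.58% (0.888% to 2.52%) in the sitagliptin library. The mitochondrial share per macrophage had medians of 0.552% and 0.590%. In the control library 1 monocyte barcode reached 13.7% and 1 dendritic cell barcode 6.37% mitochondrial member UMIs, against medians of 0.436% and 0.373%.

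The balance between the genomes does not depend on how libraries are scaled. Macrophages had 31.7 mitochondrial UMIs per 100 nuclear member UMIs in the control library (95% interval 31.6 to 31.9) and 34.9 (34.8 to 35.1) in the sitagliptin library, the highest of the 6 large classes in both. Ptprc-negative cells had 25.6 and 27.2, T cells 26.8 and 28.1, NK cells 27.8 and 31.7, and monocytes 28.8 and 31.3. Dendritic cells had 30.1 and 26.7. The order of the other classes therefore changed between the libraries, with dendritic cells second in control and last with sitagliptin, where their interval (25.7 to 27.7) overlapped that of Ptprc-negative cells. The small classes lay higher, at 41.7 and 50.9 in neutrophils and 41.7 (35.6 to 48.9) and 38.7 (35.4 to 42.3) in plasmacytoid dendritic cells. Within complex I, macrophages had 37.9 and 43.6 mitochondrial UMIs per 100 nuclear ones and Ptprc-negative cells 25.6 and 28.3. Within complex IV these values were 60.4 and 66.5 against 52.2 and 55.7.

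**Figure D1:**
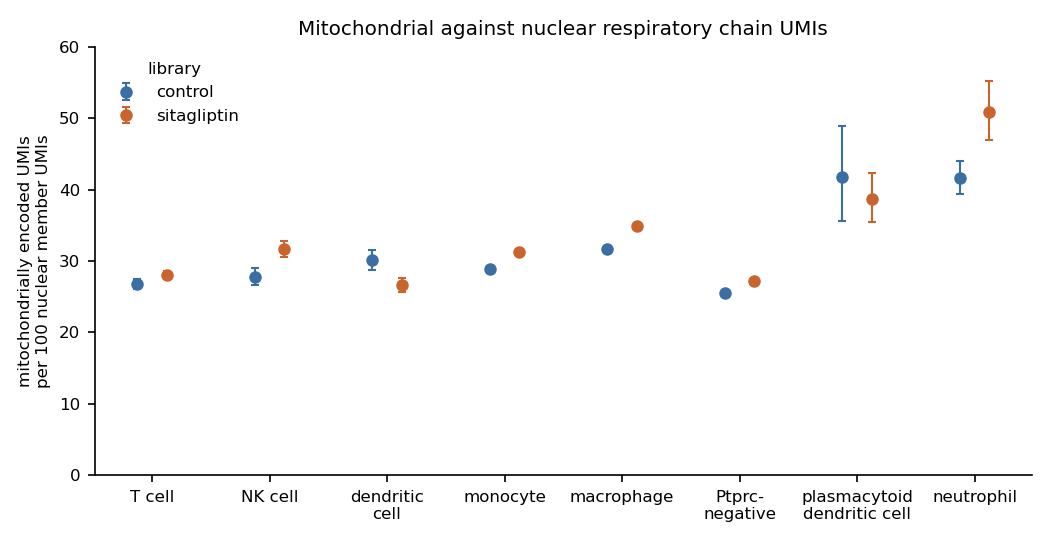
Mitochondrially encoded member UMIs per 100 nuclear member UMIs (vertical axis) in 8 cell classes (horizontal axis), control in blue and sitagliptin in orange, with 95% counting intervals where they exceed the point. Macrophages lie above the 5 other large classes at 31.7 and 34.9, and dendritic cells, at 30.1 and 26.7, are the 1 large class with the lower value in the sitagliptin library.

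Cell classes were compared by summing UMIs per library and class and testing each class against macrophages with edgeR's quasi-likelihood test, with library as a block and p-values adjusted by Benjamini-Hochberg over all 12583 genes tested. The 2 libraries are the replicates of a class and also differ in diet, and nothing in the sources used here says how many mice they represent. All comparisons share the macrophage sums, so they are not independent of each other. NK cells entered a second fit of 12046 genes that took classes with at least 50 cells in each library. Of the 104 members, 103 passed the filter on low counts in each fit.

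Against macrophages, members were lower more often than higher in every class. In T cells 4 of 103 members were higher and 17 lower at an edgeR adjusted p under 0.05, where 19.7% and 22% of all genes were called. The median log2 difference of the members was -0.14, against -0.04 over all genes. T cells are the class whose direction depends on the scale: with total UMIs and no further factors the members' median was 0.00, with 13 higher and 9 lower, and the median over all genes moved by over 0.1, from -0.04 to 0.10. The shares of all genes given above are from the fit with further factors.

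In monocytes 2 members were higher and 21 lower (edgeR background 9.45% and 9.86%), with a member median of -0.22 against -0.02 over all genes. In dendritic cells 4 were higher and 35 lower (background 11.7% and 12%), with a median of -0.28 against -0.14. In NK cells 2 were higher and 22 lower (background 13.5% and 17.4%), with a median of -0.25 against -0.05. The lower calls were thus above the share over all genes in monocytes, dendritic cells and NK cells and below it in T cells. The higher calls were below it in all 4 classes.

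Ptprc-negative cells had 17 members higher and 54 lower, where edgeR called 39.6% of all genes higher and 34.5% lower. The member median was -0.33 while that over all genes was 0.09. With total UMIs and no further factors, 29 members were higher and 32 lower, and the medians became -0.04 and 0.37. The shares of all genes given above are from the fit with further factors. Members stood below the median of all genes on both scales. Their median depth of 15035.5 and 19547 UMIs was above that of macrophages, at 4288 and 5017, and the part of depth in the result was not tested.

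**Figure D2:**
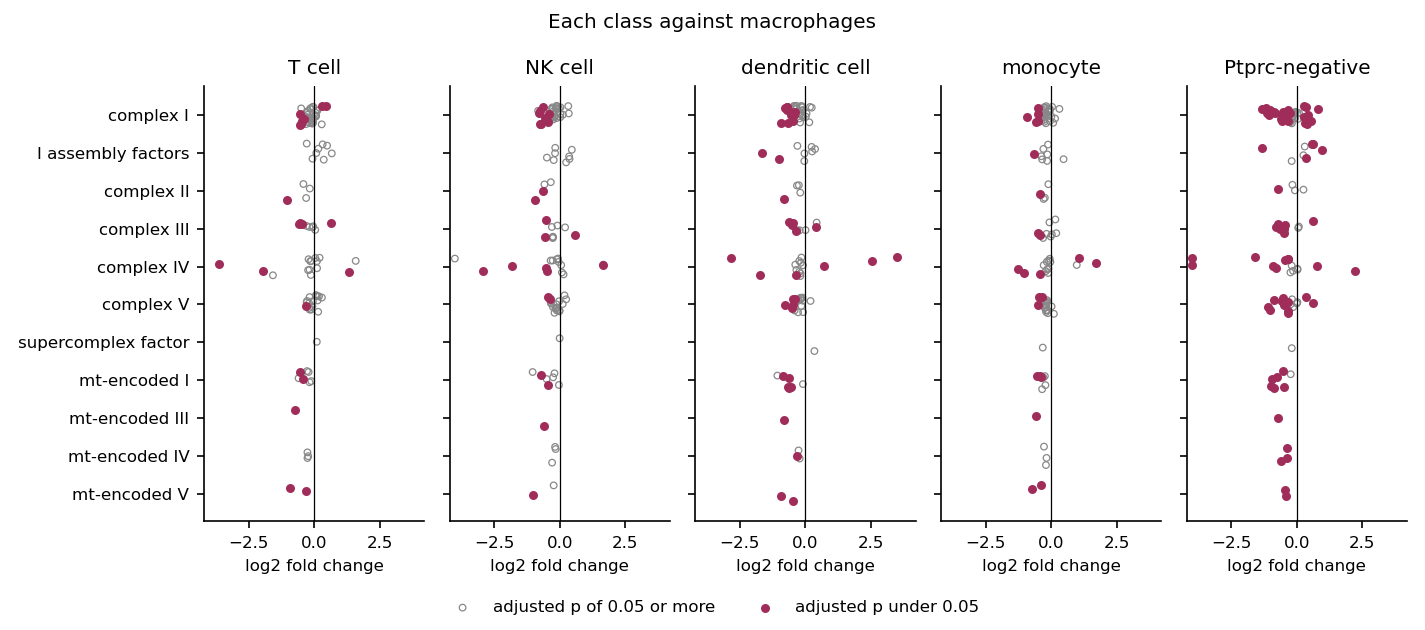
Log2 fold change against macrophages (horizontal axis) of each member, 1 panel per class and 1 row per complex, with filled points at an edgeR adjusted p under 0.05 and vertical jitter within a row; values beyond 4 in size are drawn at 4. The mitochondrially encoded rows hold no filled point to the right of 0 in any panel, and the spread of complex I in both directions is widest in Ptprc-negative cells.

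None of the 13 mitochondrially encoded members was called higher than in macrophages at an adjusted p under 0.05. This held in every class, under all 9 edgeR or DESeq2 fits of 4 classes and the single fit of NK cells. Over total UMIs with no further factors, 1 of the 13 had a log2 value above 0 in T cells and 1 in Ptprc-negative cells. At an edgeR adjusted p under 0.05, 5 were lower in T cells, 9 in dendritic cells, 6 in monocytes, 12 in Ptprc-negative cells and 4 in NK cells. Of all genes, 22%, 12%, 9.86%, 34.5% and 17.4% were called lower in these classes, in the same order. An unadjusted p under 0.05 in the higher direction was also reached by 0 of the 13 members in each class. mt-Cytb, the mitochondrial subunit of complex III, was at 573 and 587 CPM in macrophages and between 286 and 454 CPM in every other large class and library. Its log2 difference was -0.73 in T cells (SE 0.135, edgeR adjusted p = 0.000708), -0.61 in NK cells (SE 0.138, adjusted p = 0.00272), -0.83 in dendritic cells (SE 0.143, adjusted p = 0.000676), -0.59 in monocytes (SE 0.132, adjusted p = 0.00718) and -0.70 in Ptprc-negative cells (SE 0.131, adjusted p = 0.000253). It was called in all fits tried.

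mt-Nd4l, a membrane subunit of complex I, was lower in all 5 comparisons as well, by log2 values from -0.43 in monocytes (edgeR adjusted p = 0.0299) to -0.95 in Ptprc-negative cells (adjusted p = 1.26e-05). mt-Atp8, a small subunit of complex V, was at 81.0 and 118 CPM in macrophages and 46.8 and 67.3 CPM in T cells, a log2 difference of -0.94 (SE 0.138, edgeR adjusted p = 0.000102). mt-Nd4, also of complex I, was lower in all 5 too, from -0.38 in monocytes (edgeR adjusted p = 0.0425) to -0.76 in Ptprc-negative cells (adjusted p = 5.35e-05). The number of mitochondrial members called lower in monocytes ran from 1 of 13 with no replicate block to 9 without the highest doublet scores. The 1 was mt-Cytb, which was called in all fits, so the other monocyte calls did not hold there.

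The catalytic core of complex IV differed less. mt-Co1, mt-Co2 and mt-Co3 were lower in Ptprc-negative cells, by -0.59, -0.36 and -0.36 (edgeR adjusted p = 0.000198, 0.00672 and 0.0104), and mt-Co1 was lower in dendritic cells (-0.32, adjusted p = 0.0469, in 5 of 9 fits). In T cells, NK cells and monocytes none of the 3 passed the test, with log2 values from -0.29 to -0.16. mt-Nd2 was lower in dendritic cells (-0.63, edgeR adjusted p = 0.00266) and Ptprc-negative cells (-0.86, adjusted p = 7.37e-06), and mt-Atp6 in all classes but NK cells, from -0.30 in T cells (adjusted p = 0.0475) to -0.47 in dendritic cells (adjusted p = 0.0122). mt-Nd5 ranged from -0.03 in NK cells (edgeR adjusted p = 0.876) to -0.97 in Ptprc-negative cells (adjusted p = 5.77e-06). mt-Nd6, the member on the other strand of the mitochondrial genome, was lower in monocytes (-0.54, edgeR adjusted p = 0.0243). Its values in the other 4 classes, from -0.50 to -0.10, did not pass, and differences between these classes were not tested.

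Among nuclear subunits of complex I, 2 of 36 were higher and 5 lower in T cells (19.7% and 22% of all genes), 0 and 11 in dendritic cells (11.7% and 12%), 0 and 5 in monocytes (9.45% and 9.86%), 0 and 8 in NK cells (13.5% and 17.4%), and 8 and 16 in Ptprc-negative cells (39.6% and 34.5%). Ndufc1, an accessory subunit, was lower in all 5, from -0.45 in T cells to -0.82 in Ptprc-negative cells. The genes that were higher in Ptprc-negative cells include Ndufv1, a core subunit of the NADH binding part. Ndufv1 was at 94.1 and 73.9 CPM there and at 44.5 and 33.7 CPM in macrophages, a log2 difference of 0.82 (SE 0.113, edgeR adjusted p = 1.61e-05). Of the 8 assembly factors 4 were higher and 1 lower in Ptprc-negative cells, led by Ndufaf7, a methyltransferase that acts on complex I, at 21.4 and 17.6 CPM against 7.75 and 8.49 CPM in macrophages (log2 0.97, edgeR adjusted p = 5.98e-05). In dendritic cells Ndufaf4 and Ndufaf2 were lower, in 4 and 6 of 9 fits, and in T cells no assembly factor passed.

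In complex II, Sdhc, a membrane anchor subunit, was lower in 4 classes. It was at 89.1 and 72.3 CPM in macrophages, 44.3 and 41.6 CPM in T cells, 55.4 and 43.0 CPM in NK cells, 61.1 and 35.4 CPM in dendritic cells and 72.2 and 50.02 CPM in monocytes. The log2 differences were -1.03 in T cells (SE 0.151, edgeR adjusted p = 9.77e-05), -0.93 in NK cells (adjusted p = 0.000823), -0.84 in dendritic cells and -0.42 in monocytes. The lymphocyte values do not overlap those of macrophages. Ptprc-negative cells, at 127 and 108 CPM, did not pass the test. There Sdha, the flavin subunit, was lower (log2 -0.72, edgeR adjusted p = 0.000328). Sdhb, the iron-sulphur subunit, was lower in NK cells (log2 -0.65, edgeR adjusted p = 0.00196).

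In complex III, Uqcrh, the hinge subunit at the cytochrome c side, was higher in T cells (503 and 511 CPM), NK cells (507 and 507 CPM) and dendritic cells (421 and 377 CPM) than in macrophages (292 and 292 CPM). The log2 differences were 0.65 (SE 0.118, edgeR adjusted p = 0.000582), 0.59 (SE 0.126, adjusted p = 0.00188) and 0.41 (adjusted p = 0.0299). In dendritic cells it passed in 6 of 9 fits. In Ptprc-negative cells Uqcrh was lower (-0.51), as were 5 other subunits of complex III, while Cyc1, the cytochrome c1 subunit, was higher at 192 and 172 CPM against 112 and 85.9 CPM (log2 0.61, edgeR adjusted p = 0.0002). Uqcr11, a small subunit, was lower in all 5 comparisons, from -0.52 in monocytes to -0.66 in Ptprc-negative cells.

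Of 17 nuclear subunits of complex V, 0 were higher and 1 lower in T cells (19.7% and 22% of all genes), 0 and 2 in NK cells (13.5% and 17.4%), 0 and 5 in dendritic cells (11.7% and 12%), 0 and 3 in monocytes (9.45% and 9.86%), and 2 and 10 in Ptprc-negative cells (39.6% and 34.5%). Atp5b, the catalytic beta subunit, was the call in T cells (-0.32) and was lower in dendritic and NK cells too, but higher in Ptprc-negative cells (347 and 312 CPM against 224 and 202 CPM, log2 0.34). It passed in 7 of 9 fits in T cells, and in Ptprc-negative cells in 5 of 9, with log2 values down to 0.07. Atp5g2, 1 of 3 genes for the same ring subunit c, stood at 1027 and 871 CPM in Ptprc-negative cells and 551 and 462 CPM in macrophages (log2 0.62, edgeR adjusted p = 0.000291). In monocytes Atp5g2 was lower (-0.49). Cox7a2l passed in no class, with log2 values from -0.32 to 0.34.

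Among isoforms and accessory subunits of complex IV, Ndufa4 was at 80.4 and 85.9 CPM in macrophages, 183 and 166 CPM in monocytes, 106 and 170 CPM in dendritic cells, 211 and 257 CPM in T cells and 290 and 310 CPM in NK cells. Each of these classes lay above macrophages in both libraries; neutrophils, with 40 and 9 UMIs, were at 147 and 72.1 CPM. The order from NK cells to T cells to monocytes held in both libraries, while monocytes and Ptprc-negative cells (163 and 183 CPM) overlapped. The log2 difference from macrophages was 1.64 in NK cells (SE 0.158, edgeR adjusted p = 6.40e-07), 1.35 in T cells (SE 0.141, adjusted p = 4.81e-06), 1.07 in monocytes (SE 0.136, adjusted p = 0.000132), 0.77 in Ptprc-negative cells and 0.71 in dendritic cells (adjusted p = 0.00555). It passed in all 9 fits in T cells, monocytes and Ptprc-negative cells and in 8 of 9 in dendritic cells, where stricter class calls gave 0.28 (adjusted p = 0.485).

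Cox4i2 and Cox7a1 were the reverse, with their highest values among large classes in macrophages. Cox4i2, the isoform of subunit 4 known from lung and from oxygen-poor tissue, had 284 and 424 UMIs in macrophages, or 10.5 and 10.8 CPM. Monocytes had 3.83 and 4.78 CPM, T cells 3 and 0 UMIs, NK cells 0 and 2, dendritic cells 1 and 1, and Ptprc-negative cells 1 and 0. A UMI was found in 4.40% and 4.92% of macrophages, and in 0.0975% (1 of 1026) and 0 of 583 of the far deeper Ptprc-negative cells, where 0, set at a floor of 3 cells, allows a share with a UMI of up to 0.515%. Shares of T cells with a UMI were 1.21% and 0 of 402, which by the same floor allows up to 0.746%. These floors limit cells with a UMI, not cells that express the gene. With edgeR the difference from macrophages was -3.61 in T cells (SE 0.644, adjusted p = 0.000505) and -1.27 in monocytes (SE 0.313, adjusted p = 0.0119). The size in classes with 3 UMIs or fewer depends on the prior count of the fit. The common isoform, Cox4i1, was detected in 88.9% or more of the cells of each large class and library.

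Cox7a1, the isoform of subunit 7a known from heart and muscle, was at 7.93 and 10.98 CPM in macrophages, 3.53 and 5.58 CPM in monocytes and 2.86 and 4.95 CPM in Ptprc-negative cells. Its log2 difference was -1.02 in monocytes (edgeR adjusted p = 0.00871), -1.58 in Ptprc-negative cells (adjusted p = 3.29e-06) and -1.94 in T cells (SE 0.380, adjusted p = 0.00106), the last from 3 and 6 UMIs. It was detected in 4.33% and 6.90% of macrophages, and in 1.39% and 1.79% once each cell was thinned to 2000 UMIs. In the deeper Ptprc-negative cells the shares were 4.39% and 8.06%, and 0.487% and 1.201% after thinning.

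**Figure D3:**
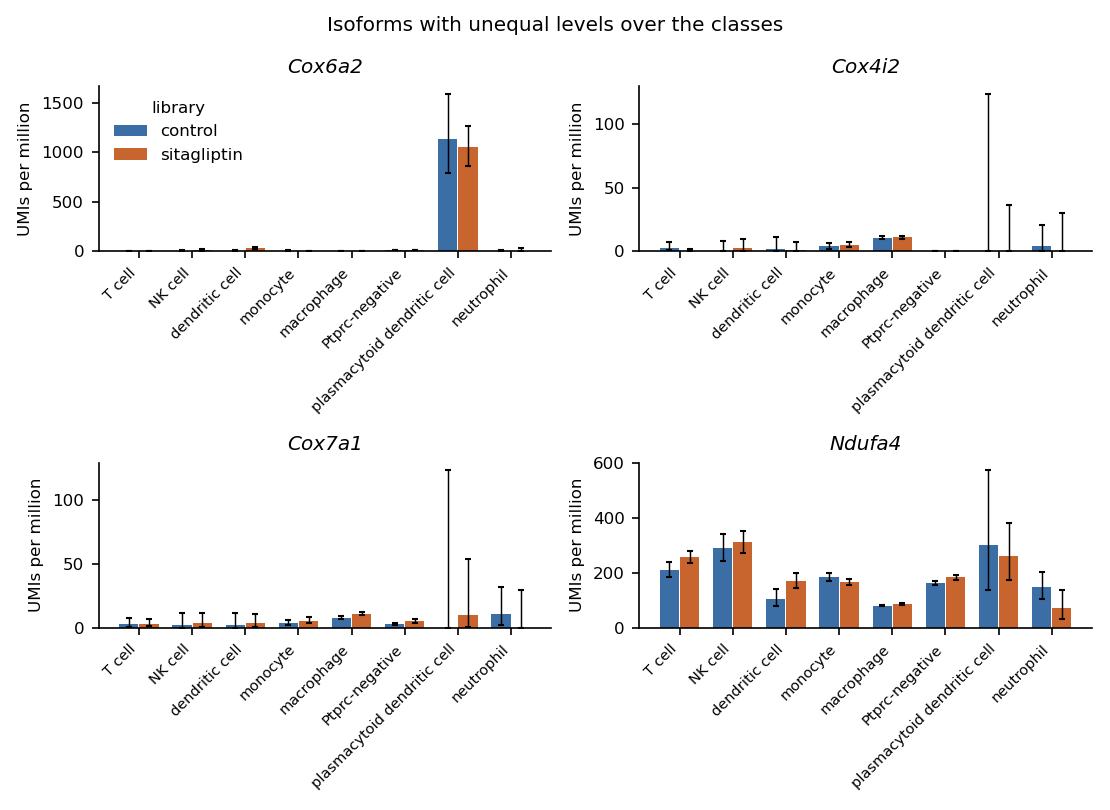
Level in CPM (vertical axes, each panel on its own scale) of Cox6a2, Cox4i2, Cox7a1 and Ndufa4 in 8 cell classes, control in blue and sitagliptin in orange, with exact 95% counting intervals. Cox6a2 stands out in plasmacytoid dendritic cells, at 1140 and 1050, and Ndufa4 in macrophages, at 80.4 and 85.9, lies below every other large class, while the wide bars of Cox4i2 and Cox7a1 mark classes with few UMIs.

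Cox6a2, the isoform of subunit 6a known from heart and muscle, was concentrated in plasmacytoid dendritic cells. These had 34 and 108 Cox6a2 UMIs, or 1140 and 1050 CPM, and the gene was detected in 10 of 11 control cells (90.9%, exact interval 58.7% to 99.8%) and 19 of 23 sitagliptin cells (82.6%, 61.2% to 95.05%). No other class exceeded 31.8 CPM. Macrophages, at 1.59 and 1.84 CPM, had a UMI in 0.815% and 1.03% of cells at median depths of 4288 and 5017 UMIs, against 2552 and 3144 in plasmacytoid dendritic cells. After thinning to 2000 UMIs the shares were 0.343% and 0.365% against 90.9% and 73.9%. Cox6a1 was at 302 and 272 CPM in plasmacytoid dendritic cells and between 224 and 443 CPM in all classes. The class was too small for a test, and both libraries gave values of the same size.

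In dendritic cells the 26 sitagliptin UMIs of Cox6a2 lay in 5 of 137 cells, 20 of them in 1 cell, and 4 of the 5 cells also carried Siglech, a marker of plasmacytoid dendritic cells. The control dendritic cells had 1 UMI. edgeR called Cox6a2 higher there than in macrophages (log2 3.48, adjusted p = 0.00231), and with stricter class calls it was at -0.13 (adjusted p = 0.971). Ptprc-negative cells had 8.95 and 10.5 CPM (log2 2.20, edgeR adjusted p = 0.000118). Cox6b2, the testis form of subunit 6b, had 12 and 9 UMIs in monocytes and 2 and 4 in dendritic cells. It was called higher there (edgeR adjusted p = 0.0269 and 0.0494), in 7 of 8 fits in monocytes but 5 of 8 in dendritic cells (highest adjusted p = 0.351), with 0 UMIs in Ptprc-negative cells of either library. Ndufa4l2, a relative of Ndufa4 known to be induced in oxygen-poor cells, had 15 and 79 UMIs in macrophages, in 12 and 28 cells, and at most 4 UMIs in any other class and library.

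Between the diets each class had 1 library per group, so there is no replicate error and no test, and the ratios describe these 2 libraries. A gene was counted as past the fold at a ratio, sitagliptin over control, of at most 0.8 or at least its inverse, among genes with at least 100 UMIs in the class. Summed nuclear members had ratios of CPM of 0.973 in T cells (95% interval 0.957 to 0.988), 0.903 in NK cells (0.880 to 0.927), 1.02 in dendritic cells (0.989 to 1.05), 0.941 in monocytes (0.931 to 0.951), 0.965 in macrophages (0.962 to 0.969) and 0.982 in Ptprc-negative cells (0.977 to 0.987). Scaling with TMM factors moved all genes by log2 0.20 in monocytes, 0.13 in dendritic cells and 0.01 to 0.09 in the other classes. With it the nuclear ratio turned to 1.02 in T cells, 1.08 in monocytes and 1.03 in macrophages. The direction of the nuclear sum in these 3 classes therefore depends on the scale.

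Summed mitochondrial members had ratios of 1.02 in T cells, 1.03 in NK cells, 0.901 in dendritic cells, 1.02 in monocytes, 1.06 in macrophages and 1.04 in Ptprc-negative cells. The direction was not stable in 3 classes. In dendritic cells the ratio was 1.08 with stricter class calls and 1.00033 without dividing cells. In monocytes it was 0.986 with stricter calls, 0.981 with each cell thinned to 2000 UMIs and 0.999 over a total without ribosomal protein and mitochondrial genes. In T cells it was 0.981 without dividing cells. Mitochondrial against nuclear UMIs, which need no scale, were higher in the sitagliptin library in 5 of the 6 classes, and the intervals of the 2 libraries did not overlap in NK cells, monocytes, macrophages and Ptprc-negative cells. Dendritic cells went the other way, and there stricter class calls gave 27.4 and 27.8. Of the 10 mitochondrial members measured in dendritic cells 1 had a ratio above 1, against 9 of 12 in T cells, 8 of 10 in NK cells, 7 of 12 in monocytes, 11 of 13 in macrophages and 10 of 13 in Ptprc-negative cells. The share of all genes above 1 was not counted here. The median log2 ratio of all genes was below 0 in each class, from -0.11 in monocytes to -0.02 in dendritic cells.

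In T cells 10 of 89 members were past it upward and 13 downward, against 10.5% and 18.2% of all 4647 genes. In NK cells the counts were 6 and 20 of 74 (background 14.8% and 17.4%), and in dendritic cells 12 and 6 of 71 (background 14.6% and 17.4%). In monocytes 9 and 23 of 93 were past the fold (background 8.61% and 28.9%). With TMM factors, which moved all monocyte genes by log2 0.20, the counts were 19 upward and 7 downward. The monocyte background is over total UMIs, and none is given for the counts with TMM factors. In macrophages 10 and 2 of 102 were (background 4.14% and 13.7%), and in Ptprc-negative cells 11 and 1 of 101 (background 6.57% and 7.46%). The members' median log2 ratios lay between -0.08 and -0.01, and those of all genes between -0.11 and -0.02.

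Complex II was the complex whose summed ratio was below 1 in all 6 classes on both scales. It was 0.845 in T cells (0.739 to 0.966), 0.839 in NK cells (0.670 to 1.05), 0.627 in dendritic cells (0.507 to 0.775), 0.790 in monocytes (0.730 to 0.854), 0.842 in macrophages (0.821 to 0.864) and 0.883 in Ptprc-negative cells (0.850 to 0.916). With TMM factors the ratios ran from 0.685 to 0.909. Sdhb was at 167 and 132 CPM in T cells, 126 and 117 in NK cells, 161 and 116 in dendritic cells, 180 and 132 in monocytes, 182 and 151 in macrophages and 194 and 167 in Ptprc-negative cells, control first. Its sitagliptin value was the lower of the pair in each class. Sdhc and Sdha had enough UMIs in 4 classes each and were below 1 there, from 0.693 to 0.939 and from 0.775 to 0.984, while Sdhd, also measured in 4, was at 1.02 in T cells.

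**Figure D4:**
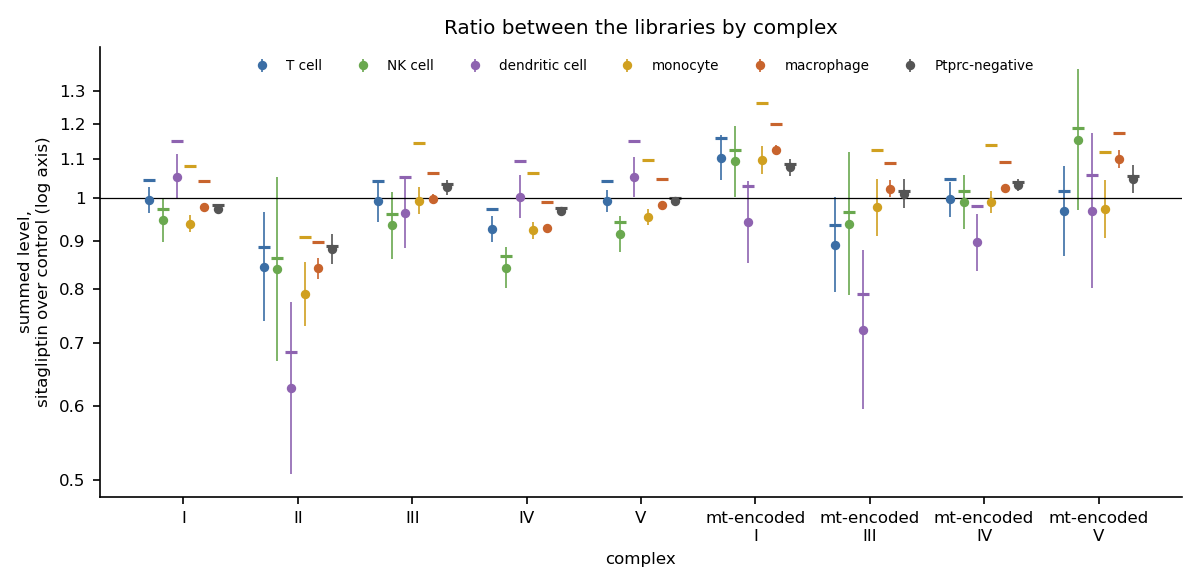
Ratio of summed CPM, sitagliptin over control (vertical log axis), for each complex (horizontal axis) in 6 classes; dots with 95% counting intervals are scaled to total UMIs and short horizontal bars to TMM factors. Complex II lies below 1 in all 6 classes on both scales, from 0.627 to 0.883 and from 0.685 to 0.909, and the mitochondrially encoded part of complex I lies above 1 in 5 of 6 and, with TMM factors, in 6 of 6.

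Nuclear complex I ratios ran from 0.939 in monocytes to 1.05 in dendritic cells, and from 0.974 to 1.15 with TMM factors, so no direction held. The mitochondrially encoded part of complex I was above 1 in 5 of 6 classes (0.943 to 1.13) and in 6 of 6 with TMM factors (1.03 to 1.26). mt-Nd1 had ratios of 1.21 in monocytes (1.09 to 1.34), 1.18 in macrophages (1.14 to 1.22) and 1.17 in Ptprc-negative cells (1.11 to 1.24), and of 0.993 in dendritic cells. mt-Nd3 was at 9.22 and 17.4 CPM in macrophages (ratio 1.89, 1.63 to 2.19) and had fewer than 100 UMIs in each immune class but this one. mt-Atp8 was at 81.0 and 118 CPM in macrophages (1.451, 1.38 to 1.53). mt-Nd2 ran from 0.971 in monocytes to 1.13 in Ptprc-negative cells, mt-Atp6 from 0.912 in T cells to 1.13 in NK cells, mt-Co1 from 0.956 in dendritic cells to 1.09 in T cells, and mt-Co3 from 0.980 to 1.11. mt-Co2 was below 1 in all 6 classes, from 0.806 to 0.985. mt-Nd6, whose RNA comes from the opposite strand, was at 0.930 in macrophages and 0.828 in Ptprc-negative cells (0.733 to 0.934).

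Nuclear complex IV was below 1 in 5 of 6 classes, from 0.843 to 1.004, and with TMM factors in 4 of 6, from 0.868 to 1.097. Cox7a2l was below 1 in all 6 classes on both scales, from 0.779 in monocytes (0.690 to 0.878) to 0.930 in T cells (0.789 to 1.099), and from 0.896 to 0.989 with TMM factors. Complex III ran from 0.936 to 1.03 and complex V from 0.917 to 1.05, and both had ratios on either side of 1 on each scale.

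Of the 70 members with enough UMIs in all 6 classes, 11 had a ratio above 1 in each on both scales: Atp5e, Atp5j2, Atp5k, Atp5md, Atp5mpl, Cox7c, Ndufa1, Ndufa3, Ndufb1-ps, Ndufc1 and Ndufs4. Of these, 5 were past the fold in every class on both scales. The share of all genes with such agreement was not counted here, so these numbers have no background. Atp5k, which helps to hold the synthase in dimers, went from 85.3 to 191 CPM in T cells (ratio 2.24, 1.80 to 2.82), from 66.6 to 122 in monocytes (1.83, 1.57 to 2.14), from 79.8 to 154 in macrophages (1.94, 1.84 to 2.04) and from 63.8 to 131 in Ptprc-negative cells (2.06, 1.90 to 2.23). Its ratio was 2.11 in NK cells and 2.44 in dendritic cells. Every sitagliptin value of Atp5k, from 122 to 191 CPM, lay above every control value, from 63.8 to 85.3 CPM, in these 6 classes.

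Ndufb1-ps, listed under a pseudogene symbol, had ratios from 1.81 (Ptprc-negative) to 2.24 (dendritic cells). Whether its UMIs come from 1 locus could not be told from the counts. Ndufa3 went from 181 to 252 CPM in macrophages (1.39, 1.35 to 1.44) and from 161 to 251 in monocytes (1.56, 1.41 to 1.73). Cox7c, a small subunit of complex IV, ran from 1.27 in NK cells to 1.40 in T cells and dendritic cells, and Atp5md, a small subunit of the synthase, from 1.27 to 1.48. Ndufs4, an accessory subunit of complex I, was the longest of the 11 by transcript (1698 nucleotides) and ran from 1.14 to 1.31.

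Downward, 19 of the 70 members were below 1 in each class, and 8 of them also with TMM factors: Atp5b, Atp5d, Atp5g2, Cox5a, Cox7a2, Cox7a2l, Cox8a and Sdhb. None was past the fold in all 6 classes. Again the share of all genes was not counted. Atp5g2 went from 474 to 270 CPM in monocytes (0.569, 0.529 to 0.612), from 699 to 469 in NK cells (0.671, 0.576 to 0.782) and from 551 to 462 in macrophages (0.839). Ndufs7, a core subunit of complex I, was at 0.617 in monocytes (0.540 to 0.704), 0.612 in dendritic cells and 0.820 in macrophages. Cyc1 was at 0.677 in monocytes, 0.733 in T cells and 0.768 in macrophages, and in NK cells at 0.979. Ndufv1 was the lowest member of macrophages (44.5 and 33.7 CPM, ratio 0.757) and of Ptprc-negative cells (0.785). Atp5g1 and Atp5g3, the other 2 genes for ring subunit c, were below 1 in all 6 classes as well, from 0.740 to 0.932 and from 0.805 to 0.937, on the scale of total UMIs. All 6 ratios of a gene come from the same 2 libraries, so agreement between classes is no replication.

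The remaining members at the ends of the range differed from class to class. In T cells Ndufa12, an accessory subunit of complex I, was high at 36.8 and 55.0 CPM (1.49, 1.04 to 2.17), while Ndufs8, a core subunit, stood at 98.7 and 59.6 CPM (0.604, 0.463 to 0.787) and Uqcrc1 and Uqcrc2, core subunits of complex III, at 0.658 and 0.719. In NK cells Atp5d, the delta subunit of the synthase, was lowest at 584 and 337 CPM (0.578, 0.486 to 0.688), followed by Ndufa6 (0.626) and Cox5a (0.668). In dendritic cells Atp5mpl, a small synthase subunit, was at 1.65 (1.24 to 2.21), Ndufa4 at 1.60 (1.16 to 2.25), mt-Cytb at 0.724 and Ndufa7 at 0.760. Atp5mpl was also high in monocytes (1.44) and Ptprc-negative cells (1.40), and Ndufab1, the acyl carrier protein, was low in monocytes (0.654, 0.574 to 0.745). In macrophages Ndufs8 was at 0.817.

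Transcript length moved with these ratios. The 11 members above 1 in all classes had a median transcript length of 489 nucleotides and the 8 below 1 in all classes on both scales 795 nucleotides. Over nuclear members Spearman's rho between length and log2 ratio was -0.21 in NK cells (64 genes) and -0.37 to -0.46 in the other 5 classes, where all points of a class share 2 libraries. In macrophages 8 of 32 members of up to 600 nucleotides were past the fold upward and 0 downward, against 1 and 2 of 28 members of over 1000 and up to 2000 nucleotides. Over all macrophage genes of up to 600 nucleotides 18.5% were past the fold upward, and 3.44% of those of over 1000 and up to 2000. Over all genes rho was 0.08 to 0.22, the opposite sign. The part of transcript length in the members' ratios was not tested.

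**Figure D5:**
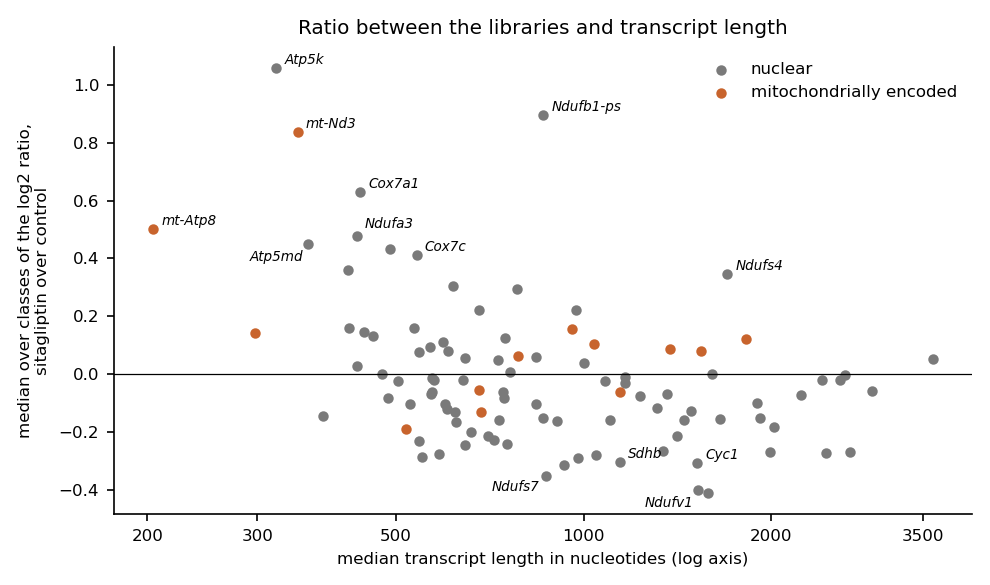
Median over the classes with enough UMIs of the log2 ratio, sitagliptin over control (vertical axis), against the median transcript length of the gene in nucleotides (horizontal log axis), 1 point per member, nuclear in grey and mitochondrially encoded in orange. Atp5k, of 321.5 nucleotides, is highest, the 6 members below -0.3 have transcripts of 870.5 nucleotides or more, and Ndufs4 and Ndufb1-ps are high at greater length.

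Markers of other cells also moved with the diet. Control monocytes held 111 CPM of Htra1 and 143 CPM of Hmga2, which were high in the Ptprc-negative class (463 and 553 CPM there) and were picked after their values were seen, and sitagliptin monocytes held 28.9 and 46.8 CPM. The fibroblast list summed to 26.2 and 12.4 CPM in monocytes, with 4 and 3 of its 5 markers detected, and the keratin list to 16.5 and 14.7 CPM. Among the members with low ratios in monocytes, Atp5g2, Cyc1 and Ndufs7 had 1027, 192 and 207 CPM in control Ptprc-negative cells, above the monocytes' own 474, 114 and 139 CPM. Control dendritic cells likewise held 59.0 CPM of Htra1 against 2.44 CPM. In NK cells Htra1 and Hmga2 went the other way, with 42.6 and 57.3 CPM and 29.8 and 44.3 CPM, control first. Cald1, picked in the same way (974 and 924 CPM in the Ptprc-negative class), was lower with sitagliptin in NK cells, at 102 and 62.5 CPM. Macrophages held 47.2 and 29.2 CPM of Htra1, 83.2 and 51.4 CPM of Hmga2 and 107 and 67.2 CPM of Cald1. T cells held 6.69 and 4.11 CPM of Htra1 and 5.85 and 7.71 CPM of Hmga2. The part of such RNA in the ratios was not tested.

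Cells with a UMI of Mki67 or Top2a, genes of dividing cells, made up 47.4% and 38.8% of T cells, 17.3% and 25.5% of dendritic cells, 17.0% and 9.73% of monocytes and 77.4% and 75.3% of Ptprc-negative cells. With each cell thinned to 2000 UMIs, their nuclear members were higher than in the other cells of the class by ratios of 1.19 and 1.15 in T cells, 1.04 and 1.18 in NK cells, 1.096 and 1.06 in dendritic cells, 1.07 and 1.08 in monocytes and 1.12 and 1.16 in Ptprc-negative cells. Macrophages were at 0.996 and 0.978. Mitochondrial members of T cells had ratios of 0.967 and 0.989 in the same comparison. Their ratio in dendritic cells was 1.65 for the control library, from 18 cells with these UMIs, but 0.954 for the sitagliptin library. NK cells likewise lay on both sides of 1, at 1.07 (control) and 0.928 (sitagliptin). Values above 1 in both libraries were found for monocytes (1.18, 1.04), macrophages (1.04, 1.02) and the Ptprc-negative class (1.06, 1.07), control first. Cells with these UMIs were also deeper before thinning, at medians of 4704 against 3006.5 UMIs in control T cells, except in macrophages (3528 against 4738). Their share was lower in the sitagliptin library in T cells and monocytes and higher in dendritic cells. Without these cells the ratio between the diets was 0.958 for nuclear members in monocytes, and for mitochondrial members 0.981 in T cells and 1.00033 in dendritic cells. The part of dividing cells in the ratios was not tested.

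The pathways around the chain were read from lists of the tricarboxylic acid cycle with pyruvate dehydrogenase, mitochondrial biogenesis, assembly factors of complexes III to V, electron carriers and quinone synthesis, inner membrane carriers with antioxidant enzymes, and the mitochondrial ribosome. In Ptprc-negative cells against macrophages, where edgeR called 39.6% of all genes higher and 34.5% lower, 8 of 17 tricarboxylic acid cycle genes were higher and 1 lower, 32 of 78 mitochondrial ribosomal proteins higher and 14 lower, 6 of 15 biogenesis genes higher and 2 lower, 8 of 25 assembly factors higher and 4 lower, and 7 of 16 genes of electron carriers higher and 3 lower. The shares of higher genes in these lists were near that over all genes, and the shares of lower genes were below it. The list of carriers and antioxidant genes went differently, with 3 of 12 higher and 5 lower. In T cells (19.7% and 22% of all genes) 0 of 17 tricarboxylic acid cycle genes were higher and 5 lower, and 0 of 12 carriers and antioxidant genes higher and 7 lower. NK cells (13.5% and 17.4%) had the same 0 and 7 for the last list. Monocytes (9.45% and 9.86%) had 1 of 78 mitochondrial ribosomal proteins higher and 19 lower, and dendritic cells (11.7% and 12%) 2 and 15.

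Between the diets, 42 of 74 mitochondrial ribosomal proteins and 11 of 17 tricarboxylic acid cycle genes were past the fold downward in monocytes and 0 upward in both lists, where 28.9% of all genes were past it downward. Their median log2 ratios there were -0.40 and -0.42, against -0.08 for the respiratory chain members and -0.11 for all genes. In macrophages 8 of 78 mitochondrial ribosomal proteins were past it downward and 1 upward, with a median of -0.15, where 13.7% of all genes were past it downward and 4.14% upward. In Ptprc-negative cells 3 and 2 of 78 were, against 7.46% and 6.57% of all genes.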

How the data were processed

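Raw counts of UMIs per gene and cell barcode were used as the authors deposited them, 1 matrix per library; per the labels' protocols the libraries were made with a droplet 5′ kit from polyA RNA. Which aligner, counter, build and annotation they used was not given in the sources used here. Members and gene lists were chosen with earlier results of these data known. A barcode was assigned to a class with at least 3 UMIs from at least 2 markers of its list. For lymphocytes, dendritic cells and neutrophils that list held over 50% of the UMIs of all cell type lists except the monocyte list. Monocytes and macrophages needed over 50% from both their lists together, and the larger list gave the name. They also needed no list of another lineage at the same limit, and monocytes needed a Ptprc UMI. Of the 13 lists, those of CD45 and the cell cycle did not enter these shares. Ptprc-negative barcodes had at least 5000 UMIs, none of Ptprc and at most 6 UMIs of immune markers per 10000, with Klra4 and Vcan not counted. Barcodes with mixed markers were left out and no doublet caller was used; removal by doublet score, with scanpy 1.11.5, was an alternative. UMIs were summed per library and class. Classes with at least 100 cells in each library were tested with edgeR 4.0.16 (R 4.3.3; TMM factors, library as block, adjusted p under 0.05); the NK cell fit, with at least 50 cells, was chosen after seeing the data. DESeq2 1.42.0 was an alternative. Diet ratios are of CPM of the class, with no test, for genes with at least 100 UMIs in the class. Shares have exact Clopper-Pearson intervals. The named genes were, for each class, the 4 members with the highest and the 4 with the lowest diet ratio among those at 50 CPM or more in the higher library, for each class comparison the 3 highest and 3 lowest log2 values among those past the test, all mitochondrial members, and a list of isoforms, complex II and ring subunit genes; other members were named for their role after their values were seen. A gene that this rule names is not reported here. The fit was tested on simulated data.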

Additional observations from a re-analysis of the deposited data

How the results depend on the processing

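The ratio of summed nuclear members between the diets was, with TMM factors, 1.02 in T cells, 1.08 in monocytes and 1.03 in macrophages, each turned from below 1, and 0.930 in NK cells, 1.11 in dendritic cells and 0.990 in Ptprc-negative cells. With stricter class calls it was 0.948 in NK cells, 1.06 in dendritic cells and 0.962 in macrophages, and without the highest doublet scores 1.05 in dendritic cells. Without cells with cycle markers it was 0.850 in NK cells, 1.06 in dendritic cells, 0.958 in monocytes, 0.957 in macrophages and 0.962 in Ptprc-negative cells. With each cell thinned to 2000 UMIs it was 0.946 in T cells, 0.938 in macrophages and 0.970 in Ptprc-negative cells, and over a total without ribosomal protein and mitochondrial genes 0.921 in monocytes. The ratio of summed mitochondrial members turned in dendritic cells with stricter calls (1.08) and without cycling cells (1.00033), and in monocytes with stricter calls (0.986), with thinning (0.981) and over the reduced total (0.999). It moved with TMM factors to 1.07 in T cells, 0.984 in dendritic cells, 1.17 in monocytes and 1.13 in macrophages, without cycling cells to 0.981 in T cells and 1.02 in Ptprc-negative cells, with stricter calls to 1.03 in Ptprc-negative cells and without doublet scores to 1.05 in monocytes. The counts of members below are given without the share over all genes. Alternatives for the counts and for the balance of the genomes marked here as later were chosen after seeing the data. Among these later ones, members past the fold downward were with TMM factors 8 in T cells, 3 in dendritic cells, 7 in monocytes and 0 in macrophages, with 19 past it upward in monocytes. With stricter calls they were 7 in T cells, 9 in NK cells and 2 in Ptprc-negative cells, and without cycling cells 1 in dendritic cells, 14 in monocytes, 4 in macrophages and 8 in Ptprc-negative cells. Relative to the median of the length class, 10 were past it upward and 13 downward in NK cells, 8 downward in monocytes and 0 in macrophages. For members called against macrophages, T cells had 26 lower with DESeq2, 13 higher and 9 lower with no factors, 2 higher and 27 lower with no filter on low counts, and 33 lower without cycling cells. With no replicate block, 8 were lower in T cells, 20 in dendritic cells and 5 in monocytes. Dendritic cells had 2 higher with no filter and 1 with stricter calls, and monocytes 34 lower without cycling cells. Ptprc-negative cells had 29 higher and 32 lower with no factors, and 9 higher with no filter, 10 with stricter calls, 11 without doublet scores and 9 without cycling cells. Also later, mitochondrial UMIs per 100 nuclear ones, control then sitagliptin, were with stricter calls 25.5 and 27.2 in T cells, 29.9 and 33.1 in NK cells and 27.4 and 27.8 in dendritic cells, 29.95 in control monocytes and 26.9 in sitagliptin Ptprc-negative cells. Without cycling cells they were 30.2 and 30.8 in T cells, 28.2 and 29.8 in Ptprc-negative cells, 33.1 in sitagliptin NK cells and 35.2 in sitagliptin macrophages, and without doublet scores 28.0 in control monocytes. The cause was not tested for any of these. Each library alone, with no test, gave member medians against macrophages over total UMIs of -0.01 to 0.03 in T cells, -0.26 to -0.23 in dendritic cells, -0.25 to -0.19 in monocytes and -0.07 to -0.01 in Ptprc-negative cells. Between the diets no paired analysis was possible because each diet is 1 library. Classes of under 100 cells in a library limit single members to intervals often wider than the fold.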
